A study of Mus musculus with 66 samples.

Results

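Potassium channel genes were followed through depletion of 9 chromatin and transcription regulators in cultured mouse neurons. The members were all gene symbols that begin with Kcn followed by a letter, without the antisense transcripts Kcnd3os, Kcnmb4os1, Kcnmb4os2 and Kcnq1ot1. This gave 94 genes of 30084 symbols in the count table. Of these, 78 passed the filter on low counts and were tested among 16145 genes. The members include pore-forming subunits and the auxiliary subunits that carry the same gene prefix.

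Neurons came from wildtype e16.5 mouse embryos, with male and female embryos kept apart. Cultures received no virus, or a lentivirus that expresses a short hairpin RNA (shRNA), a tool for degrading a chosen mRNA. The 9 targets were Med13l, Chd8, Ash1l, Tbr1, Setd5, Kdm6b, Dnmt3a, Mbd5 and Kmt2c, and a nontargeting shRNA was the control. The virus was removed on day 6 of culture, the neurons were lysed on day 10, and polyadenylated RNA was sequenced. With 3 libraries for each treatment and sex, this gave 66 libraries in 22 groups, all of wildtype genotype. The labels give wells in triplicate and do not say that these came from separate cultures, so p-values may measure technical spread between wells. Viral doses aimed at roughly 50% of the normal target mRNA, and the labels name neither a brain region nor the hairpin sequences.

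Potassium channels let potassium leave the cell and so set the resting potential of a neuron, end its action potentials and limit how fast it fires. Voltage-gated channels (Kv) are built from alpha subunits, whose surface level and kinetics are tuned by Kv beta subunits, KChIP proteins and KCNE proteins. Inwardly rectifying (Kir) and tandem-pore (K2P) channels act near rest, and the BK, SK and Slo2 channels respond to calcium or sodium inside the cell.

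Levels were first compared between members per kilobase of exon, as CPM (read counts scaled to the size of the library) divided by the length of all exons of the gene in GENCODE vM21, averaged over the 6 nontargeting libraries. Kcnj4, an inward rectifier of forebrain neurons, stood highest at 51.56 CPM per kb. Other high members were Kcnd2, a subunit of the A-type current in dendrites, at 21.83 CPM per kb, the silent subunit Kcnf1 at 20.68 CPM per kb and the G protein-gated Kcnj3 at 19.82 CPM per kb. The Kv beta gene Kcnab2 reached 18.39 CPM per kb and the Kv1 gene Kcna6 18.27 CPM per kb. All 4 KChIP genes, all 4 Kv3 genes and all 5 Kv7 genes were tested, whereas 9 of 14 K2P genes and 3 of 5 KCNE genes were. The 16 members not tested were Kcna10, Kcne1, Kcne3, Kcng4, Kcnj1, Kcnj13, Kcnj15, Kcnk15, Kcnk16, Kcnk18, Kcnk5, Kcnk7, Kcnmb1, Kcnmb3, Kcnn4 and Kcnv2, none with more than 14 counts in any library.

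**Figure D1:**
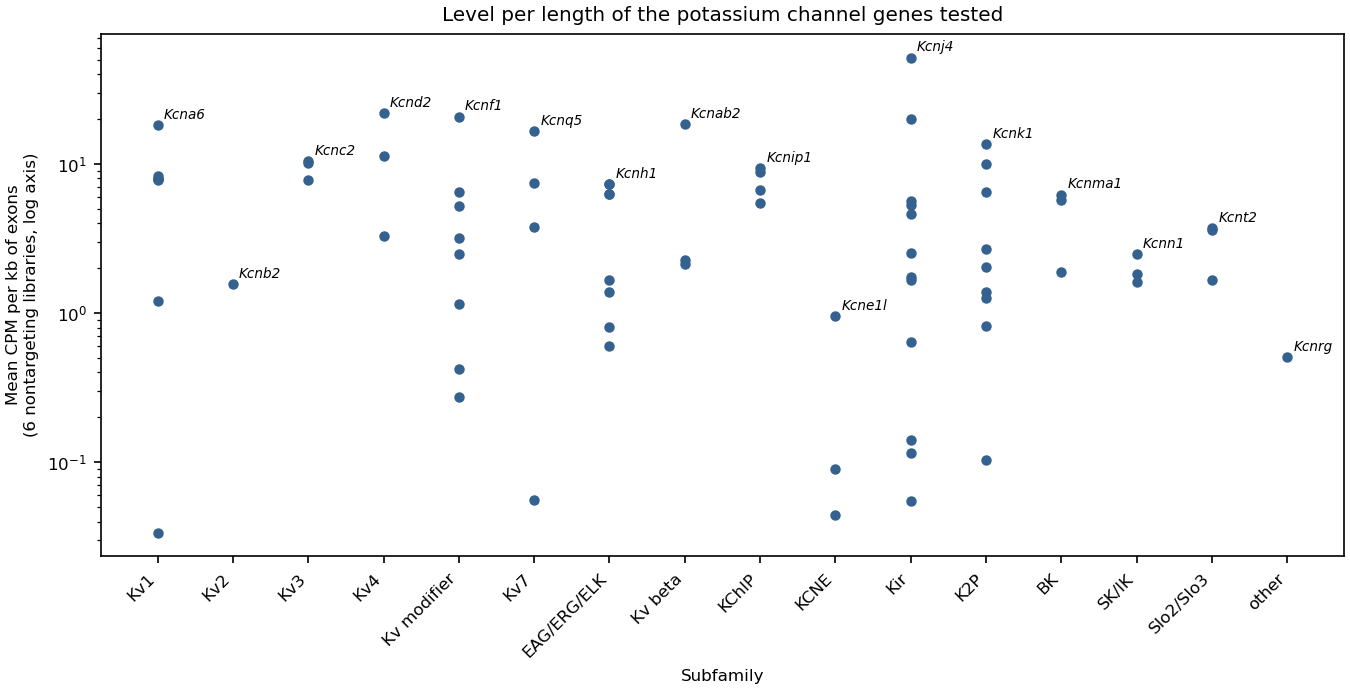
Each point is 1 of 75 tested potassium channel genes, placed by subfamily (horizontal) and by mean CPM per kilobase of exon over the 6 nontargeting libraries (vertical, log axis), with the highest gene drawn in each subfamily named. Kcnj4 stands highest at 51.56 CPM per kb, and Kcnab2 is the highest Kv beta gene at 18.39 CPM per kb.

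Total counts ran from 13759741 to 66558546 per library. Each target stood at 22.3% to 54.3% of its nontargeting level over the 18 shRNA groups, and in 16 groups every library lay below every nontargeting library. The fall passed in 15 of the 18 groups, and not for Kdm6b in either sex (edgeR adjusted p = 0.0953 in males and 0.856 in females) or Setd5 in males (edgeR adjusted p = 0.402). The libraries labelled Setd5 shRNA male replicate 1 and Kdm6b shRNA male replicate 1 stood apart from their groups, and whether they were exchanged was not tested. The former had 141 CPM of Setd5, against 133, 135 and 149 CPM in the nontargeting males, which goes against its label, and 23.1 CPM of Kdm6b. In the latter Setd5 stood at 44.9 CPM and Kdm6b at 39.9 CPM, the second value below the nontargeting males at 55.1, 64.9 and 59.5 CPM but above the other Kdm6b shRNA males at 17.2 CPM each. Calls on members in males of these 2 groups are given with and without these libraries. Neuron markers summed to 5620 to 8200 CPM in every library, against 0.437 to 3.87 CPM for microglia markers, and Cx3cr1, P2ry12, Tmem119, C1qa, Mag, Sox10 and Cldn5 were at 0 in 29 to 52 of the libraries. In bulk RNA, fewer cells of a type and less RNA per cell cannot be told apart.

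Each shRNA was compared with the nontargeting shRNA in the same sex in edgeR, by the quasi-likelihood test. The Benjamini-Hochberg adjustment ran over all 16145 genes, with a threshold of 0.05. Of the 78 tested members, 18 changed in at least 1 of the 18 comparisons and 60 in none. That share, 23.1%, was near the 25.1% of all genes tested that were called in at least 1 of them. All but 6 of those 18 changed in more than 1 comparison, and 12 moved alike in males and females of a knockdown. The shares of all genes that did so were not computed, so these counts are a description only. The changes belonged to the Med13l, Chd8 and Ash1l knockdowns, with 1 each after Setd5 and Tbr1 shRNA. By subfamily, 4 of 9 K2P genes changed somewhere, as did 2 of 3 Kv beta genes and 2 of 8 EAG, ERG and ELK genes. Of the Kir genes 1 of 12 did, and of the Kv1 genes 1 of 7, and no KChIP, KCNE, SK or silent Kv gene passed in this fit. These counts rest on few genes, and no difference between subfamilies was tested. With the replicate number of each library added to the fit as a block, many more members passed, so the split above holds only without it. Kcna2 passed with the block in 6 comparisons and Kcnc4 in 5. Of the other Kv1 genes not called above, Kcna5 and Kcna6 passed in 2 each and Kcna4 in 1. The share of all genes called at least once with the block is not given here. Some genes of the last-named subfamilies passed too. Among them were Kcns1 in 4 comparisons, Kcnip2 in 2, and Kcne1l and Kcnn2 in 1 each, whether or not the numbers paired the libraries.

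**Figure D2:**
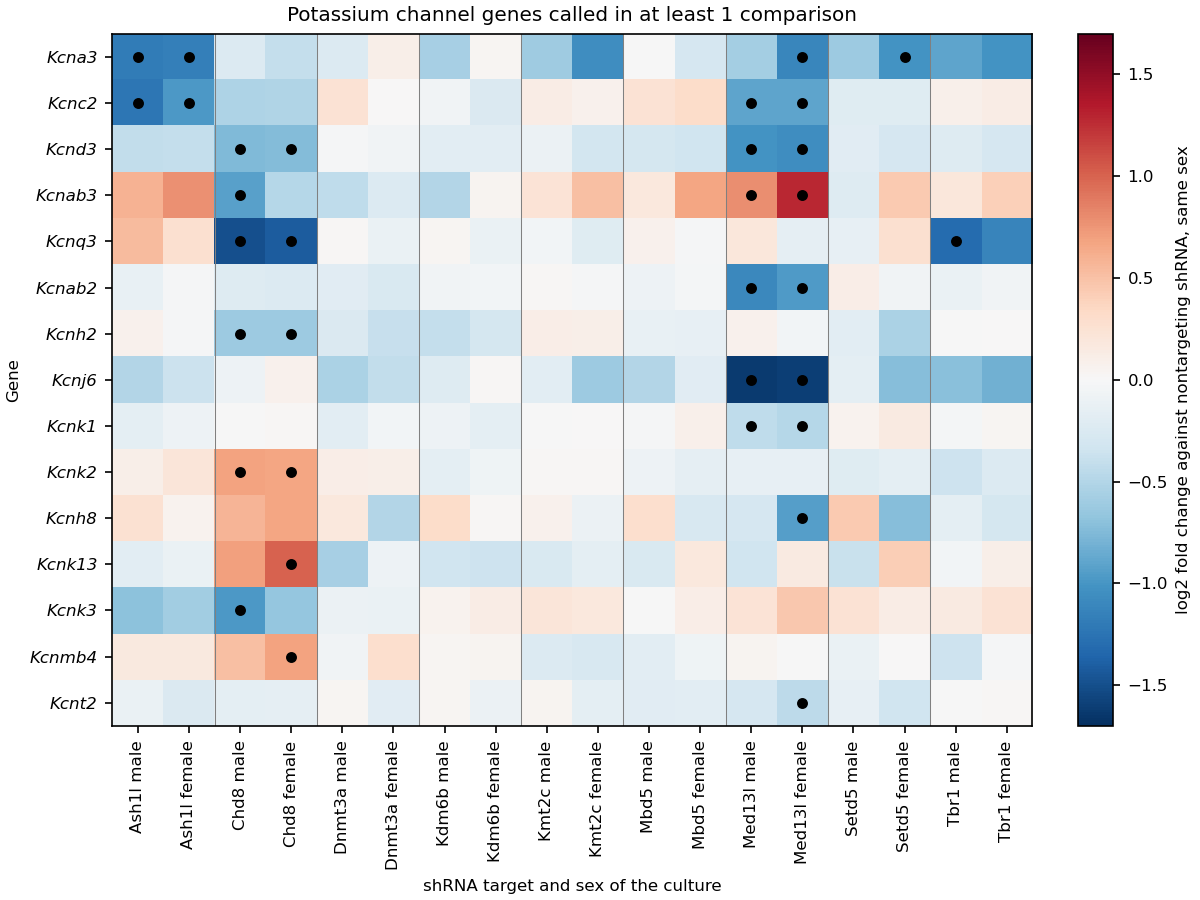
Colours give the log2 fold change of 15 of the potassium channel genes called at least once (rows) in the 18 comparisons of an shRNA with the nontargeting shRNA of the same sex (columns), and black dots mark an adjusted p under 0.05 by edgeR. Dots lie mainly in the Ash1l, Chd8 and Med13l columns, and Kcnab3 is blue in the Chd8 columns and red in the Med13l columns.

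Kcna3, Kcnc2 and Kcnd3 each passed in 4 comparisons. The RefSeq promoter windows (GRCm38.p6, from 250 bases before to 50 after a gene's start) are printed for these 3. All 3 genes fell in Med13l females, as did other members, and no shared promoter feature was tested. Capitals mark the GC box GGGCGG, searched on both strands, where its reverse complement reads CCGCCC. The Kcna3 window is chr3:107035912-107036211 on the plus strand, that of Kcnc2 is chr10:112269767-112270066 on the plus strand, at the most upstream of 4 annotated starts, and that of Kcnd3 is chr3:105451640-105451939 on the plus strand. Each is shown 5' to 3'.
Kcna3: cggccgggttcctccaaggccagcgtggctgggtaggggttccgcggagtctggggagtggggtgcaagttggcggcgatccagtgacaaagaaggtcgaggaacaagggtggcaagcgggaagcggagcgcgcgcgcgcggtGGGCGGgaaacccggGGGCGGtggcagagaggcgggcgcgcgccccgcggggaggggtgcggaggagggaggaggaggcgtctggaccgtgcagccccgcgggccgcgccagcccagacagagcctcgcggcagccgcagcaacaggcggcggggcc
Kcnc2: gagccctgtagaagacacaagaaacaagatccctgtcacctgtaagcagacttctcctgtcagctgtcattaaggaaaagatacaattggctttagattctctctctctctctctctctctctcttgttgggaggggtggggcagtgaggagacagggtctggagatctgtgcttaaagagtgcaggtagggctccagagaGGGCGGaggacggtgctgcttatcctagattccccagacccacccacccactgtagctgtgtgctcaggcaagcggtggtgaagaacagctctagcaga
Kcnd3: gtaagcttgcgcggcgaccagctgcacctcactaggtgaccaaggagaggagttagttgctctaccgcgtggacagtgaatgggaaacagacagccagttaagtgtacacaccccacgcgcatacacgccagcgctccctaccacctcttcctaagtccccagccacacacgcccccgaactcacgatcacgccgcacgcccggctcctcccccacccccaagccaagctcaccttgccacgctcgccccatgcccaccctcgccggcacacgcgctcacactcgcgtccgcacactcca

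The Kcna3 window holds 2 GC boxes and 37 CpG dinucleotides, that of Kcnc2 holds 1 GC box and 3 CpG, and that of Kcnd3 holds no GC box and 25 CpG. A GC box was present in 35.9% of all 27025 promoter windows, in 61.6% of the windows of all genes tested and in 58.2% of the 55 windows of tested members. A window without the box says only that these letters are absent from it. Kcnq3 and Kcnab3 had no entry. The gene bodies in GENCODE vM21 (GRCm38) run from 107036169 to 107038070 on chromosome 3 for Kcna3 and from 112271121 to 112467024 on chromosome 10 for Kcnc2. That of Kcnd3 runs from 105452330 to 105674002 on chromosome 3. The Kcnc2 and Kcnd3 windows, placed by RefSeq starts, end before these gene bodies begin.

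Med13l codes for a subunit of the kinase module of Mediator. After Med13l shRNA, 8 members changed in males, 2 of them higher and 6 lower, and 12 changed in females, 2 higher and 10 lower. Over all genes tested, 3.14% were called higher and 4.92% lower in males, and 4.74% and 5.49% in females. Called members made up 10.3% of the 78 in males and 15.4% in females. Kcnab3 rose in both sexes, and Kcnd3, Kcnab2, Kcnc2, Kcnj6 and Kcnk1 fell in both. The median log2 fold change of the 78 genes was -0.21 in males and -0.30 in females, against -0.01 and 0.00 over all genes tested.

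Kcnd3 codes for Kv4.3, a pore subunit of the fast inactivating A-type current. It stood at 121, 112 and 108 CPM in the male nontargeting libraries and at 59.4, 63.1 and 46.8 CPM after Med13l shRNA. In females the values were 105, 112 and 87.4 CPM against 37.3, 66.7 and 42.4 CPM. All knockdown libraries of both sexes lay below all nontargeting libraries of the same sex, and the knockdown means were 49.7% of the control in males and 48.2% in females. The log2 fold change was -1.01 (SE 0.17, with an adjusted p of 2.6e-05 by edgeR) in males and -1.05 (SE 0.17, with an adjusted p of 1.06e-05 by edgeR) in females.

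Kcnab2 codes for Kv beta2, which binds Kv1 channels and helps carry them into axons. It stood at 104, 96.2 and 117 CPM in male controls and at 53.3, 52.3 and 43.6 CPM after Med13l shRNA. In females it stood at 92.3, 112 and 93.4 CPM against 31.4, 79.2 and 41.4 CPM, so the groups did not overlap in either sex but the second female knockdown library came nearest to its controls. Its log2 fold change was -1.09 (SE 0.21, with an adjusted p of 0.000333 by edgeR) in males and -0.97 (SE 0.21, with an adjusted p of 0.00136 by edgeR) in females. The related Kcnab3 moved the other way. It stood at 6.32, 6.82 and 9.62 CPM in male controls and at 15.5, 9.92 and 14 CPM after the knockdown. Female values were 5.15, 6.35 and 4.85 CPM against 15.4, 11.7 and 12.7 CPM. Every knockdown library was above every control, with log2 fold changes of 0.79 (SE 0.23, with an adjusted p of 0.0193 by edgeR) and 1.28 (SE 0.23, with an adjusted p of 9.85e-05 by edgeR).

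Kcnc2 codes for Kv3.2, a channel that lets neurons fire at high rates and is known from fast-spiking inhibitory interneurons. Kcnc2 stood at 70.1, 72.2 and 83.9 CPM in male controls and at 41.7, 44 and 36.1 CPM after Med13l shRNA. In females the controls had 65.9, 81.7 and 72 CPM and the knockdown 23.6, 61.9 and 32.1 CPM, without overlap. Its log2 fold change was -0.89 (SE 0.21, with an adjusted p of 0.0029 by edgeR) in males and -0.90 (SE 0.21, with an adjusted p of 0.00245 by edgeR) in females. Inhibitory neuron markers moved in the same samples. Of the 8 on the list, Gad1 and Slc32a1 fell in males and Slc32a1 in females, and the summed level was 1210 to 1670 CPM in males after the knockdown, against 1970 to 2190 CPM in controls. In females it was 1090 to 1900 against 1760 to 2010 CPM. Syt1, the only 1 of 8 general neuron markers called, fell by 2.52 in males and by 2.16 in females on the log2 scale. The median log2 fold change of these 8 was -0.04 in males and -0.09 in females, with 5 negative in each sex. The part of the inhibitory markers and of Syt1 in the Kcnc2 result was not tested.

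Kcnj6 codes for the G protein-gated channel GIRK2. It stood at 14.3, 14.8 and 13.2 CPM in male controls and at 4.94, 4.92 and 3.84 CPM after the knockdown. Female controls spread more widely, at 5.59, 17.6 and 10.4 CPM, and overlapped the knockdown at 1.78, 7.07 and 2.24 CPM. Its log2 fold changes were -1.63 (SE 0.46, with an adjusted p of 0.0172 by edgeR) and -1.61 (SE 0.46, with an adjusted p of 0.0163 by edgeR), the lowest among the called members.

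Of the other members called after Med13l shRNA, named here after their values were seen except for Kcna3, the K2P gene Kcnk1 fell by 0.43 in males and by 0.48 in females on the log2 scale. In females alone the threshold was passed by Kcna3 (log2 fold change -1.10), Kcnt2 (-0.44) and Kcnh8 (-0.94), among others. In males these 3 stood at -0.58, -0.29 and -0.29. No difference between the sexes passed for any of them (edgeR adjusted p of 1 for each).

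The replicate numbers paired the female libraries, and with the number as a block 30 members were called in females, against 27.9% of all genes. Replicate 2 had the highest summed CPM of the members in both female groups, at 2787 after Med13l shRNA and 3332 in the nontargeting controls. In a fit of only the 6 female libraries compared, no member was called. Without female Med13l replicate 1 the count was 5, and without female Med13l replicate 3 or female nontargeting replicate 2 it was 6. Without female Med13l replicate 2 it was 18. The shares of all genes called with a library left out are not given here. In males it was 5 without Med13l replicate 1 or 3. The calls on Kcnd3 and Kcnab3 in females, and on Kcnd3, Kcnab2 and Kcnc2 in males, held with each library left out in turn. Kcnab2 and Kcnc2 in females were not called without Med13l replicate 1. Kcnj6 was lost in males without Med13l replicate 1 or 3, and in females without Med13l replicate 1 or 3 or nontargeting replicate 2. Kcnab3 was lost in males without nontargeting replicate 1 or 2 or Med13l replicate 1 or 3. In females Kcnk1 was lost without Med13l replicate 3 or nontargeting replicate 1 or 3. Kcna3 was lost there without Med13l replicate 1 or nontargeting replicate 2, Kcnt2 without any except Med13l replicate 2, and Kcnh8 without any except nontargeting replicate 1. Kcnk1 in males was lost without any 1 of the 6 libraries.

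Chd8 codes for a chromatin remodeller. After Chd8 shRNA, 6 members changed in males, 1 higher and 5 lower, and 6 changed in females, 3 higher and 3 lower. Over all genes, 3.64% were called higher and 6.18% lower in males, and 3.34% and 5.99% in females. The members' share, 7.69% in each sex, was thus close to that over all genes. Kcnq3, Kcnd3 and Kcnh2 fell and Kcnk2 rose in both sexes. The median log2 fold change of the 78 genes was -0.12 in males and -0.17 in females.

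Kcnq3 codes for a subunit of the M-current channel, which opposes repetitive firing. It stood at 111, 114 and 130 CPM in male controls and at 29.2, 31.9 and 64.4 CPM after Chd8 shRNA. Its female values were 92.3, 126 and 85.2 CPM against 51, 37.9 and 25.6 CPM. The groups did not overlap, and the knockdown means were 35.4% and 37.7% of the controls. This gave a log2 fold change of -1.50 (SE 0.31, with an adjusted p of 0.000531 by edgeR) in males and -1.41 (SE 0.31, with an adjusted p of 0.00123 by edgeR) in females.

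Kcnk2 codes for TREK-1, a K2P channel opened by stretch and by lipids. It stood at 48.4, 51.8 and 53.5 CPM in male controls and at 81.7, 82.4 and 82 CPM after Chd8 shRNA. The female libraries had 42.8, 51.8 and 48.5 CPM against 75.2, 74.1 and 79.2 CPM. The knockdown libraries lay close together and above all controls. In log2 terms the rise was 0.68 (SE 0.14, with an adjusted p of 0.000602 by edgeR) in males and 0.67 (SE 0.14, with an adjusted p of 0.00072 by edgeR) in females. An antisense gene, A430027H14Rik, shares 12.2% of the exon length of Kcnk2, and whether the counting used strand is not stated. Without strand, reads of such pairs cannot be told apart. Among other members this also touches Kcnd3 (1.72% of its exon length shared with an antisense gene), Kcnab3 (5.13%), Kcnj6 (4.98%), Kcnk1 (8.01%), Kcnt2 (1.48%) and Kcnmb4 (10.7% and 20.8% with 2 such genes). Other genes on the opposite strand share exon length with Kcnk3 (5.76%), Kcnma1 (5.98%) and Kcnq5 (3.08%).

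Kcnd3 stood at 70.1, 72.2 and 60.3 CPM in males after Chd8 shRNA and at 60.6, 68.9 and 53.4 CPM in females, all below the controls given above. Its log2 fold change was -0.75 (SE 0.17, with an adjusted p of 0.00123 by edgeR) in males and -0.73 (SE 0.17, with an adjusted p of 0.0018 by edgeR) in females. Kcnh2, the ERG1 channel gene, stood at 37.4, 42.2 and 37.9 CPM in male controls and at 27, 28.7 and 20.8 CPM after the knockdown. Female values were 29.2, 30.1 and 35.1 CPM against 14.4, 25.9 and 21 CPM. The groups lay apart but passed narrowly, with a log2 fold change of -0.62 in each sex (SE 0.21, edgeR adjusted p = 0.0447 and 0.0463).

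Kcnab3 fell in males, from 7.58 ± 1.78 to 4 ± 0.841 CPM (SD, n = 3 each; log2 fold change -0.92, edgeR adjusted p = 0.005), and stood at -0.48 in females without passing. Kcnc2 passed with the block in both sexes (edgeR adjusted p = 0.107 in males and 0.121 in females without it, 0.0127 and 0.00878 with it). Of the members named here after their values were seen, Kcnk3, the acid-sensitive K2P channel TASK-1, fell in males, from 26.5 ± 0.521 to 13.4 ± 3.54 CPM (SD, n = 3 each; log2 fold change -0.98, edgeR adjusted p = 0.0129). In females it stood at -0.65 and passed with the replicate block alone (edgeR adjusted p = 0.131, and 0.000408 with the block). Kcnmb4, the neuronal beta subunit of BK channels, and Kcnk13 rose in females, with log2 fold changes of 0.68 and 1.01 (edgeR adjusted p = 0.00826 and 0.0411), and stood at 0.51 and 0.69 in males, where Kcnmb4 passed with the block (edgeR adjusted p = 0.0584, and 0.0124 with the block). No difference between the sexes passed for these 4 genes (edgeR adjusted p of 1 for each). Astrocyte markers, 8 in all, summed to 257 to 388 CPM in males and 269 to 302 CPM in females after Chd8 shRNA. Controls had 350 to 437 and 373 to 516 CPM. Of these 8, 0 were called, and 6 in males and 7 in females had a negative log2 fold change. The inhibitory marker Gad2 and the neuron marker Syt1 fell in both sexes, each the only 1 of 8 called on its list. On the inhibitory list 5 in males and 6 in females were negative, and on the neuron list 6 in each sex. With the replicate block in males, 2 inhibitory markers were called higher and 3 lower, and 2 neuron markers higher and 2 lower. Of 6 excitatory markers only Camk2a was called, falling by 0.91 on the log2 scale in females. On that list 3 in males and 4 in females were negative. Their part in these results was not tested.

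With the replicate number as a block, which paired the libraries in both sexes, 20 members were called in males against 22.1% of all genes, and 17 in females against 21.1%. With only the 6 female libraries compared in the fit, no member was called. The count in females was 3 without nontargeting replicate 1 and 11 without Chd8 replicate 2, and the shares of all genes in those fits are not given. Kcnq3, Kcnk2 and Kcnd3 kept their calls in both sexes with each library left out. Kcnh2 was lost in males without any 1 of the 6 libraries and in females without any except Chd8 replicate 2. Kcnab3 in males was lost without nontargeting replicate 3 or Chd8 replicate 3, and Kcnk3 without Chd8 replicate 3. Kcnmb4 in females was lost without nontargeting replicate 1 or Chd8 replicate 1, and Kcnk13 without nontargeting replicate 1 or 3 or Chd8 replicate 2 or 3.

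The comparisons of Chd8 and Med13l shRNA share their control libraries, so their libraries were also compared directly, a comparison chosen after seeing the data. In males 17 members differed, 10 higher and 7 lower after Chd8 than after Med13l shRNA. Over all genes, 9.63% were higher and 9.76% lower. In females 16 differed, 10 higher and 6 lower, against 9.97% and 11.9% of all genes, so the members' shares were near those of all genes. With the replicate block, which paired these libraries, 31 members differed in males (34.5% of all genes) and 36 in females (38.6%).

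Kcnab3 differed by -1.71 on the log2 scale (Chd8 minus Med13l shRNA, edgeR adjusted p = 1.62e-07) in males and by -1.76 (edgeR adjusted p = 9.16e-08) in females. Group means were 4 and 13.1 CPM in males and 3.9 and 13.3 CPM in females. Kcnq3 averaged 41.9 CPM after Chd8 and 135 CPM after Med13l shRNA in males, and 38.2 and 90.9 CPM in females (edgeR adjusted p = 4.65e-05 and 0.0018). Kcnk2 averaged 82 against 46.7 CPM in males and 76.2 against 43.1 CPM in females (edgeR adjusted p = 2.14e-05 and 1.75e-05). Kcnj6 was also higher after Chd8 shRNA, at 13.3 against 4.57 CPM in males and 11.8 against 3.7 CPM in females (edgeR adjusted p = 0.0121 and 0.0057). Kcnd3, which fell after both shRNAs, was not among the genes that differed.

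Ash1l codes for a histone methyltransferase. After Ash1l shRNA, 3 members changed in males, 1 higher and 2 lower, and the same 3 in females. The 2 that fell were Kcnc2 and Kcna3. Over all genes, 0.514% were called higher and 1.46% lower in males, and 0.26% and 0.842% in females. The median of the 78 members was -0.02 on the log2 scale in each sex.

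Kcnc2 stood at 37.2, 29.4 and 30.3 CPM in males after Ash1l shRNA and at 32.5, 43.6 and 35.1 CPM in females. All 6 values lay below every control value given above. The log2 fold change was -1.22 (SE 0.21, with an adjusted p of 0.000134 by edgeR) in males and -0.98 (SE 0.21, with an adjusted p of 0.0049 by edgeR) in females. The inhibitory markers Gad1 and Slc32a1 fell as well, by 1.36 and 1.22 in males and by 1.20 and 1.24 in females on the log2 scale. The 8 markers on that list summed to 885 to 1340 CPM in males and 947 to 1250 CPM in females, all below the controls. The excitatory marker Slc17a6 rose in both sexes, the only 1 of 6 called. Of these 6, 2 in each sex had a negative log2 fold change. Their part in the fall of Kcnc2 was not tested.

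Kcna3 codes for Kv1.3. It stood at 17.6, 15.9 and 19.8 CPM in male controls and at 6.99, 8.18 and 8.13 CPM after Ash1l shRNA. In females it stood at 11.8, 17.2 and 12.2 CPM against 5.76, 8.06 and 4.61 CPM, again without overlap. The log2 fold change was -1.19 (SE 0.29, with an adjusted p of 0.0121 by edgeR) in males and -1.16 (SE 0.29, with an adjusted p of 0.0272 by edgeR) in females.

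The replicate numbers paired the female libraries, and with the block 6 members were called in females, against 4.43% of all genes. With only the 6 female libraries in the fit none was called, and none was without Ash1l replicate 1 or 3 either. In females Kcnc2 was lost without either of those libraries, and Kcna3 also without nontargeting replicate 2. In males 1 member was called without Ash1l replicate 3, and Kcnc2 held without each library in turn. Kcna3 was lost in males without any Ash1l replicate or nontargeting replicate 3 and against the no virus libraries.

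**Figure D3:**
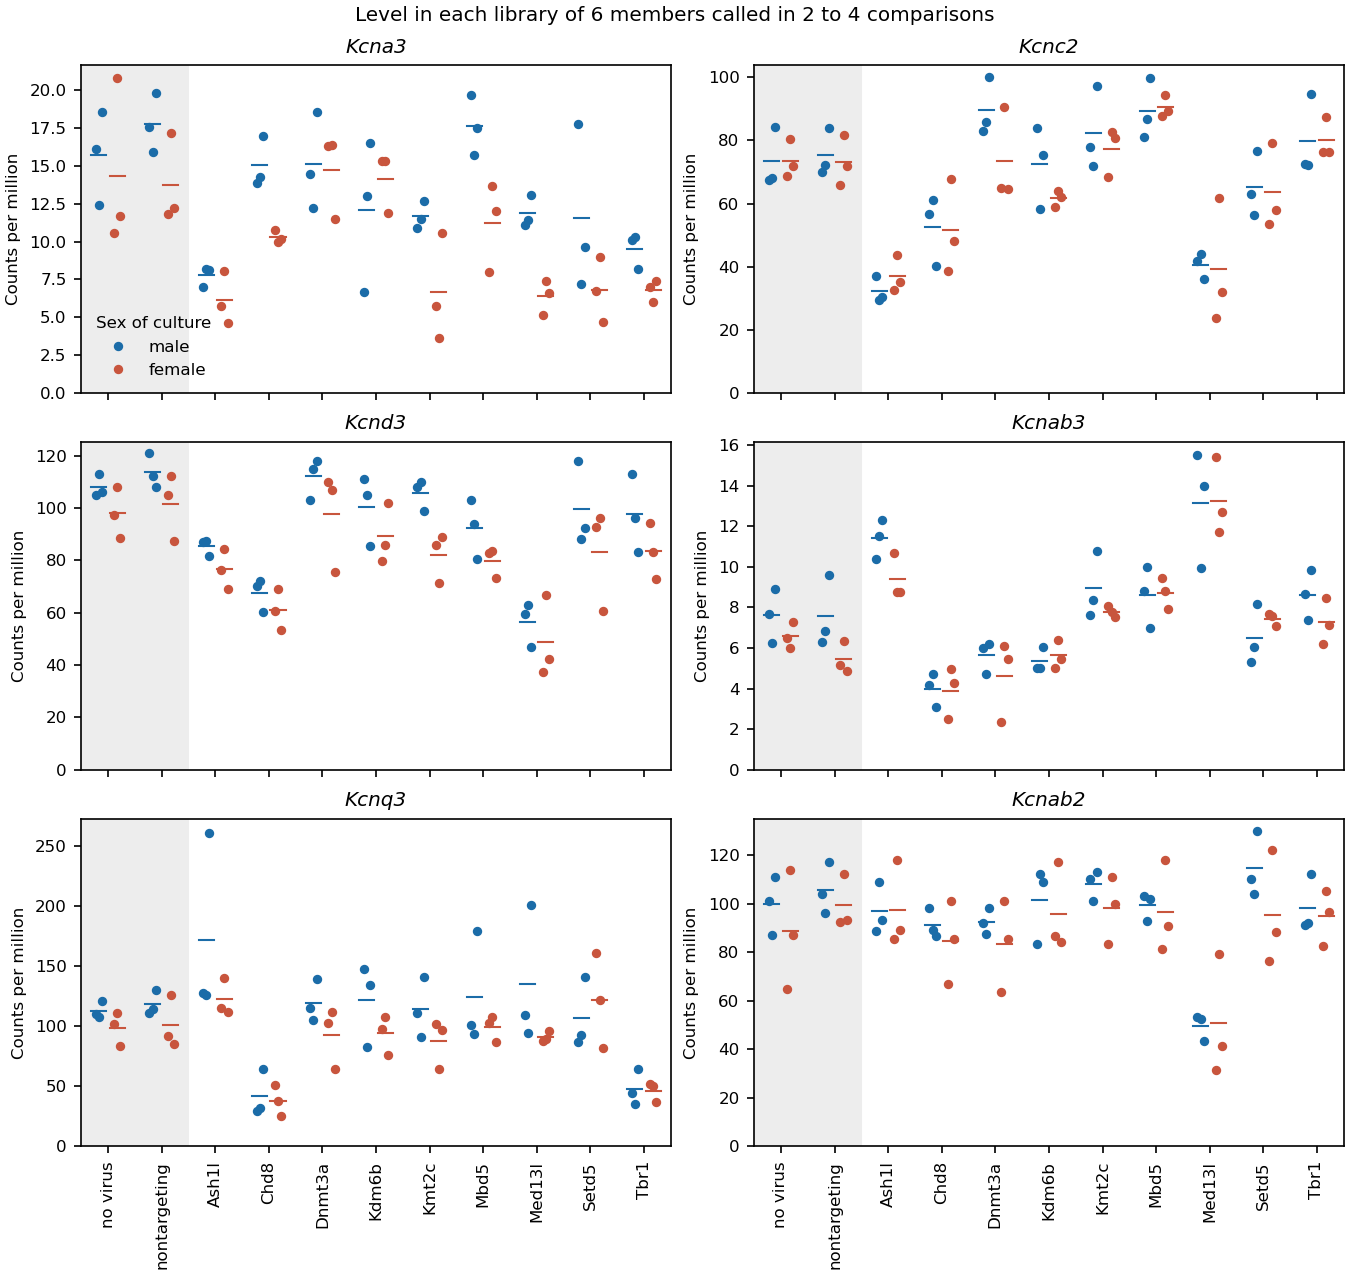
Points give the CPM of Kcna3, Kcnc2, Kcnd3, Kcnab3, Kcnq3 and Kcnab2 in each of the 66 libraries by treatment (horizontal), with males in blue and females in red, and short lines give the mean of 3 libraries. The shaded columns are the no virus and nontargeting controls. Kcnq3 is low after Chd8 and Tbr1 shRNA, Kcnc2 after Ash1l and Med13l shRNA, and Kcnab2 after Med13l shRNA.

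After Tbr1 shRNA, which depletes a transcription factor of deep-layer cortical neurons, Kcnq3 was the 1 member that passed in males, against 0.217% of all genes. It stood at 44.1, 35.1 and 64.2 CPM in males, below all controls (111, 114 and 130 CPM). In females it stood at 52.2, 50.2 and 36.8 CPM, also below all controls. The log2 fold change was -1.30 (SE 0.31, with an adjusted p of 0.0428 by edgeR) in males. In females it was -1.13 (SE 0.30, with an adjusted p of 0.215 by edgeR), so no member passed there, against 0.0619% of all genes. In females 4 members had an unadjusted p under 0.05, and DESeq2 called 0. The female value passed with the replicate block, which paired these libraries (edgeR adjusted p = 0.00103). With that block 4 members were called in males (1.75% of all genes) and 1 in females (0.898%). The male call was lost against the no virus libraries, without the filter on low counts, with RLE scaling, with the male libraries fitted alone, and without Tbr1 replicate 1 or 2 or any 1 of the nontargeting libraries. The astrocyte marker Slc1a2 fell in both sexes after Tbr1 shRNA, the only 1 of the 8 astrocyte markers called. Of these 8, 2 in males and 5 in females had a negative log2 fold change, with medians of 0.53 and -0.13. The part of Slc1a2 in the result was not tested.

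After Setd5 shRNA, Kcna3 was the 1 member that passed in females, against 3.12% of all genes. It stood at 6.76, 9 and 4.66 CPM, below the controls at 11.8, 17.2 and 12.2 CPM, with a log2 fold change of -1.01 (SE 0.29, with an adjusted p of 0.0432 by edgeR). With the replicate block, which paired the libraries, 7 members were called, against 13% of all genes. The call on Kcna3 was lost with the female libraries fitted alone, with only the 6 compared, without the filter on low counts, and without Setd5 replicate 1 or 3 or any 1 of the nontargeting libraries. Without Setd5 replicate 2 the count of members was 5, and the share of all genes in that fit is not given. In these females the inhibitory markers Slc32a1 and Sst fell, and the 8 markers summed to 1230 to 1820 CPM. Their part in the result was not tested. In males no member passed with all 3 libraries, against 0.0557% of all genes, with 1 at an unadjusted p under 0.05 and 0 by DESeq2. Kcna3 stood at 17.8, 7.23 and 9.66 CPM there, and the first of these is the library that went against its label. Without it and the Kdm6b library named above, Kcna3 passed in males, with a log2 fold change of -1.06 (edgeR adjusted p = 0.0484).

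No member passed after Dnmt3a, Kdm6b, Kmt2c or Mbd5 shRNA in either sex by edgeR. Over all genes, the share called in males was 0.111% after Dnmt3a, 0.0867% after Kdm6b, 0.0867% after Kmt2c and 0.0619% after Mbd5 shRNA. In females it was 0.118%, 0%, 0.0991% and 0.0557% in the same order. Members at an unadjusted p under 0.05 numbered 2, 4, 1 and 1 in males and 2, 3, 8 and 2 in females. DESeq2 called 1 member after Kdm6b shRNA in males and 0 in the other 7 comparisons. That 1 was Kcnj11, the pore subunit of ATP-sensitive channels, which is named here after its values were seen. It stood at 17.1, 20 and 16.4 CPM in male controls and at 12.6, 9.16 and 10.3 CPM after Kdm6b shRNA, with no overlap (log2 fold change -0.74, edgeR adjusted p = 0.0936). It passed without the 2 libraries that stood apart (log2 fold change -0.87, edgeR adjusted p = 0.0342). With the replicate block, which paired these libraries, 1 member was called after Mbd5 shRNA in males (0.979% of all genes) and 2 after Kmt2c shRNA in females (1.09%).

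No member had a different effect in males and in females after any of the 9 shRNAs, with edgeR's interaction test giving an adjusted p of 1 throughout. The share of all genes called was 0.0186% for Setd5 and 0% for the other 8. Members at an unadjusted p under 0.05 numbered 0 to 3 per shRNA, and DESeq2 called 0. With 3 libraries per group, this does not show that the effects were alike. Members with log2 fold changes of the same sign in males and females numbered 61 of 78 after Chd8 and 59 after Med13l shRNA. They numbered 63 after Dnmt3a, where no member passed, 59 after Ash1l, 58 after Tbr1, 56 after Kmt2c, 52 after Mbd5, 51 after Setd5 and 50 after Kdm6b shRNA. The Setd5 and Kdm6b counts keep the 2 male libraries that stood apart from their groups. The share over all genes was not computed, so these counts are a description only. The 2 sexes share no libraries. The nontargeting shRNA was also set against no virus. No member passed in either sex by edgeR or DESeq2, none had an unadjusted p under 0.05, and 0% of all genes were called in males and 0% in females.

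**Figure D4:**
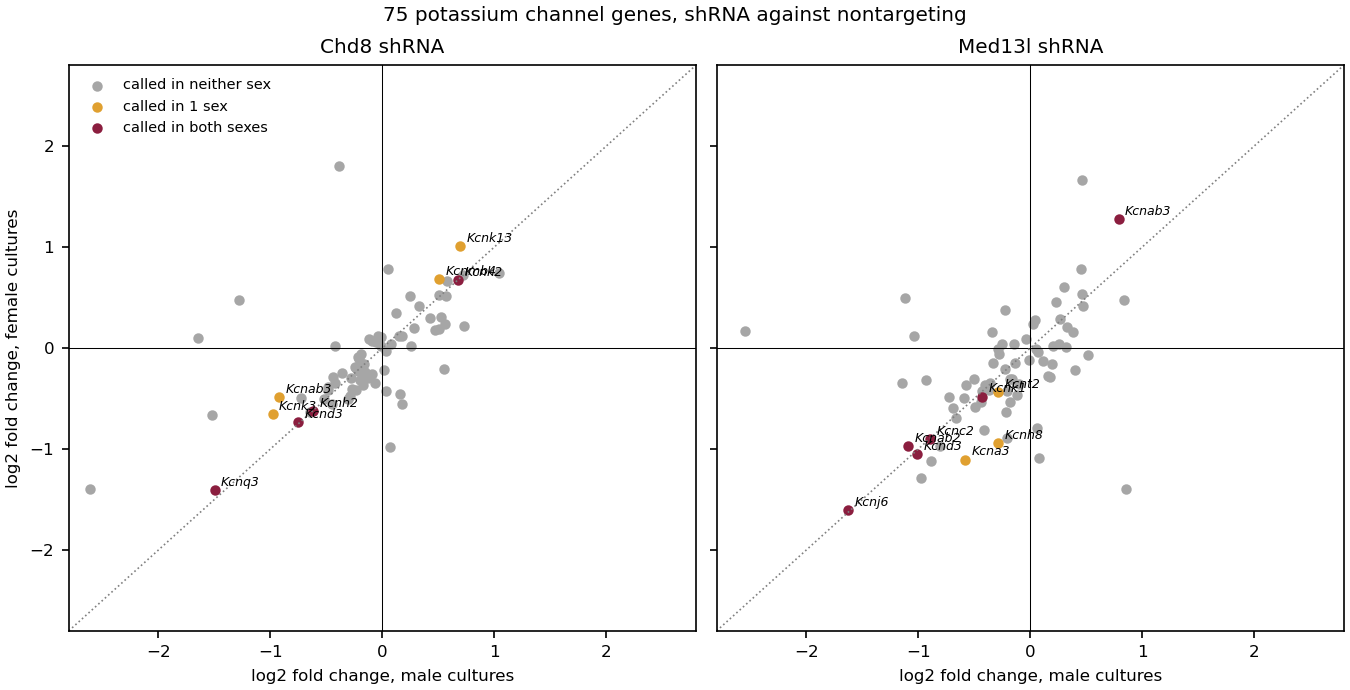
Each point is 1 of 75 tested potassium channel genes, with its log2 fold change against the nontargeting shRNA in males (horizontal) and in females (vertical), after Chd8 shRNA (left) and Med13l shRNA (right). Near the dotted line of equal effects lie Kcnq3, at -1.50 and -1.41 after Chd8 shRNA, and Kcnj6, at -1.63 and -1.61 after Med13l shRNA. Kcnab3, also called in both sexes after Med13l shRNA, lies farther from it. Genes called alike in both sexes must share a sign, so their place is no test of equal effects.

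The 6 members with the highest CPM among those never called without the replicate block were Kcnq5, Kcnd2, Kcnj4, Kcna6, Kcnma1 and Kcnj3. Kcnq5, another M-current gene, averaged 133 ± 18 CPM (SD, n = 3) in male controls, and its log2 fold changes over the 18 comparisons ran from -0.43 to 0.20. Kcnd2, which codes for Kv4.2 and shares the A-type current with Kcnd3, averaged 116 ± 4.07 CPM (SD, n = 3), with log2 fold changes from -0.72 to 0.21. Its lowest value was after Med13l shRNA in males (edgeR adjusted p = 0.287). Kcnj4 averaged 121 ± 8.66 CPM (SD, n = 3) and ranged from -0.60 to 0.14, and Kcna6 averaged 110 ± 8.8 CPM (SD, n = 3) and ranged from -0.51 to 0.13. With the replicate block, Kcnq5, Kcnd2, Kcnj4 and Kcnma1 passed after Med13l shRNA in females (edgeR adjusted p from 0.00743 for Kcnma1 to 0.0101 for Kcnq5). Kcna6 passed with it after Chd8 shRNA in males (edgeR adjusted p = 0.0138). Over the 18 comparisons the block called Kcnq5, Kcnd2, Kcnj4 and Kcna6 in 2 each, and Kcnma1 and Kcnj3 in 1 each. An antisense gene shares 39.6% of the exon length of Kcna6, and a noncoding gene on the other strand shares 31.1% of that of Kcnj3. The BK pore gene Kcnma1 ranged from -0.82 to 0.23 and Kcnj3 from -0.93 to 0.50. Female controls of Kcnd2 and Kcnj3 varied widely, with 109 ± 49.2 CPM (SD, n = 3) for Kcnd2 and 98.6 ± 62.9 CPM (SD, n = 3) for Kcnj3.

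Similarity of pattern was described by Pearson's r of mean log2 CPM over the 22 groups, which share libraries and depth. Kcnd3 was most like Kcnab2 (r = 0.79), Kcnc2 most like Kcnd3 (r = 0.686) and Kcna3 most like Kcnt1 (r = 0.724), followed by Kcnh7 (r = 0.698) and Kcnh5 (r = 0.649).

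Other genes that act with potassium channels were followed as a list of 20, of which 18 were tested. After Chd8 shRNA 3 fell in males and 2 in females, where 9.82% and 9.33% of all genes were called. Abcc8 codes for SUR1, the regulatory subunit of ATP-sensitive channels. It averaged 19.4 ± 0.412 CPM (SD, n = 3) in male controls and 9.01 ± 0.537 CPM (SD, n = 3) after Chd8 shRNA, and 16.6 ± 1.7 against 7.66 ± 2.33 CPM in females. Its log2 fold change was -1.11 in each sex (edgeR adjusted p = 3.61e-05 and 3.73e-05). Its pore partner Kcnj11 stood at -0.48 in males (edgeR adjusted p = 0.0847) and -0.42 in females (edgeR adjusted p = 0.157), and the male value passed with the replicate block (edgeR adjusted p = 0.0228). Vapa, which anchors Kv2 channels at contacts with the endoplasmic reticulum, fell by 0.63 in males and by 0.59 in females on the log2 scale, and Vapb fell by 0.26 in males. In males 2 partner genes passed without any 1 library other than Chd8 replicate 1, and with only the 6 female libraries in the fit none passed in females.

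After Med13l shRNA 2 partner genes fell in males, and in females 3 fell and 1 rose, where 8.06% and 10.2% of all genes were called. Cntnap2 codes for CASPR2, which clusters Kv1 channels beside the node of Ranvier. It averaged 244 ± 21.3 CPM (SD, n = 3) in male controls and 113 ± 10.8 CPM (SD, n = 3) after the knockdown, and 205 ± 35.3 against 95.9 ± 30.3 CPM in females. Its log2 fold change was -1.11 in males and -1.10 in females (edgeR adjusted p = 7.07e-06 and 7.92e-06). Adam23 fell by 0.50 in males and by 0.59 in females on the log2 scale. Amigo1, an auxiliary subunit of Kv2 channels, fell by 0.37 in females, where Vapa rose by 0.36. In both sexes the fall of Cntnap2 stood beside that of Kcnab2, which is also known to associate with Kv1 channels. Without the replicate block, only Kcna3 of the 7 tested Kv1 genes passed after Med13l shRNA, and only in females. Over all the knockdowns, Kcna2, Kcna4, Kcna5 and Kcna6 also passed somewhere with the block. Of these 7, 5 in males and 6 in females had a negative log2 fold change, with medians of -0.51 and -0.37. In each sex 3 of them had an unadjusted p under 0.05 by edgeR. No partner gene passed in the other 14 comparisons by edgeR, where 0 to 3 had an unadjusted p under 0.05 and DESeq2 called 0. The count of partner genes in females after Med13l shRNA was 1 without Med13l replicate 1, 2 without nontargeting replicate 2 or 3, 7 without Med13l replicate 2 and 0 with only the 6 libraries compared. In males it was 1 without any 1 library other than nontargeting replicate 2. With the replicate block, which paired the female libraries, it was 7 in females, where 27.9% of all genes were called.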

How the data were processed

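Polyadenylated RNA of 66 libraries was sequenced after a stranded library preparation, per the labels' protocols. STAR, featureCounts and the mouse build mm10 are named in the submitters' processing notes, without versions; whether strand and read pairs were used in counting is not given in the sources used here. The deposited values are raw counts per gene, made by the authors, in 1 table. Of values from 1 to 20, 26.7% were odd, against 49.1% of values of 1000 or more, so a fit with counts halved was an alternative. Rows without a symbol (0.69% to 1.41% of counts) were left out, 149 repeated symbols were summed, and 6 columns that match no sample here were not used. The table's Luc columns, the remaining control shRNA in it, were taken as the nontargeting libraries. Members, gene lists and tests were chosen with earlier results of these data known. Total counts per library limit the precision of low values.

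All 66 libraries were fitted in edgeR 4.0.16 (R 4.3.3) with 1 mean per group, TMM scaling (factors 0.874 to 1.06), the filterByExpr filter and robust quasi-likelihood tests, and p-values were adjusted by Benjamini-Hochberg per comparison at 0.05. CPM values use TMM library sizes. The fit was tested on simulated data. Replicates of a group differed beyond sampling noise in every pair (chi-square per gene 7.92 to 386). Replicate numbers come from the labels. They were taken to pair the libraries where the deviations of same-numbered libraries correlated above 0.1 for all 3 numbers, which held in 6 of 9 comparisons in males and 8 of 9 in females. Genes were named by rule: members called in both sexes of a knockdown (up to 6), the called member with the smallest adjusted p where there was none, members called in at least 3 comparisons, and the 10 with the highest mean CPM in nontargeting libraries. Others are said to be chosen after their values were seen. Alternatives were DESeq2 1.42.0, RLE scaling, no filter, counts halved, a replicate block, each sex alone, only the libraries compared, no virus as control, and each library left out. Gene positions are from GENCODE vM21 and promoter sequences from RefSeq. Results on some single members are not reported here, though these members count in the totals.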

Additional observations from a re-analysis of the deposited data

How the results depend on the processing

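Of the 40 calls on members, DESeq2 and the replicate block kept 40 each, counts halved 39, RLE scaling 38, no virus as the control 34, no filter 30, each sex fitted alone 27 and a fit of only the libraries compared 18. Leaving out 1 library kept 157 of 240 calls, and no direction reversed. The causes of the changes below were not tested, except that fits of only the libraries compared or of 1 sex use fewer samples. Apart from the block shares given above, the share of all genes called in each alternative fit is not given. A larger count of members below is therefore no result about the members.

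DESeq2 called 1 member after Kdm6b shRNA in males. RLE scaling, no filter and no virus as the control each left 0 after Tbr1 shRNA in males. After Setd5 shRNA in females the count was 0 without the filter and 2 against no virus. No filter and no virus each left 1 partner gene after Med13l shRNA in males. With each sex fitted alone, members called in males were 8 after Ash1l, 18 after Chd8, 2 after Kdm6b and 22 after Med13l shRNA, and in females 0 after Ash1l, 0 after Setd5 and 6 after Med13l shRNA. Partner genes then numbered 1 after Ash1l, 1 after Dnmt3a, 1 after Tbr1, 2 after Mbd5 and 4 after Med13l shRNA in males, and 1 after Med13l shRNA in females. With only the libraries compared, members in males were 7 after Ash1l, 17 after Chd8, 1 after Dnmt3a, 2 after Mbd5, 26 after Med13l and 2 after Tbr1 shRNA, and in females 0 after Ash1l, Chd8, Med13l and Setd5 shRNA. Partner genes were then 1 after Ash1l, 2 after Dnmt3a, 2 after Mbd5 and 5 after Med13l shRNA in males, and 0 after Chd8 and Med13l shRNA in females.

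With the replicate number as a block, members in males were 9 after Ash1l, 20 after Chd8, 2 after Kdm6b, 1 after Mbd5, 23 after Med13l and 4 after Tbr1 shRNA. In females the block gave 6 after Ash1l, 17 after Chd8, 2 after Kmt2c, 30 after Med13l, 7 after Setd5 and 1 after Tbr1 shRNA. Between Chd8 and Med13l shRNA it gave 31 in males and 36 in females. Partner genes with the block were 2 after Ash1l, 1 after Dnmt3a, 1 after Mbd5 and 6 after Med13l shRNA in males, and 1 after Ash1l, 1 after Dnmt3a, 1 after Kmt2c, 1 after Mbd5 and 7 after Med13l shRNA in females. The numbers did not pair the libraries for Ash1l, Kdm6b and Med13l shRNA in males or Kdm6b shRNA in females. The block removed none of the 40 calls.

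Without the 2 libraries that stood apart from their groups, 1 member was called after Kdm6b and 1 after Setd5 shRNA in males. With 1 library left out, member counts ran in males from 1 to 3 after Ash1l, 4 to 6 after Chd8, 5 to 7 after Med13l and 0 to 1 after Tbr1 shRNA, and in females from 0 to 3 after Ash1l, 3 to 11 after Chd8, 0 to 1 after Kmt2c, 5 to 18 after Med13l and 0 to 5 after Setd5 shRNA. Partner counts ran from 2 to 3 after Chd8 and 1 to 2 after Med13l shRNA in males, and from 0 to 1 after Dnmt3a and 1 to 7 after Med13l shRNA in females. RLE scaling moved the median of all genes by -0.02 to 0.02 on the log2 scale. With 3 libraries per group and no test of the smallest change that could be found, a member that did not pass is not shown to be unchanged.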
